A study of Mus musculus with 13 samples.

Results

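The genes described here are 42 genes of fibroblast identity and of the elastic-fibre matrix. They were chosen by name, as fibroblast surface and matrix genes other than collagens. The rule uses no measured value, but it was set with earlier results of these data known. The array carries all 42, on 74 of its 62976 features, among 20738 named genes. By role the list holds 8 fibroblast surface and cell markers, 6 genes of the small leucine-rich proteoglycans with dermatopontin, 10 adhesive and matricellular proteins, 5 lysyl oxidases, and 13 genes of elastin, the microfibrils, the fibulins and the latent TGF-beta binding proteins (LTBPs).

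Expression was measured on 13 Agilent arrays of mouse RNA, 1 sample per array, in 7 groups. Wild-type embryonic fibroblasts (MEF, 2 arrays) carried an empty vector and wild-type tail tip fibroblasts (TTF, 2 arrays) carried tdTomato, and both were grown for 3 passages in 10% serum. Induced embryonic Sertoli cells, TTF-ieSC (2 arrays) and MEF-ieSC (1 array), came from TTF and MEF in turn. They carried Nr5a1, Wt1, Dmrt1, Gata4 and Sox9, and were kept for 6 months in 2% serum with doxycycline. The native samples were male gonad at 14.5 days post coitum, taken without culture, immature Sertoli cells from testis at 19 days post coitum after 3 days of culture, and mature ones at 8 weeks after 7 days, 2 arrays each, both Sertoli cultures in 10% serum. The strain is not given in the sources used here, nor whether replicate arrays came from separate animals or cultures, so a p-value here reflects the scatter of these arrays alone, and that scatter may be technical. No group held fibroblasts kept like the induced cells without the factors, so the factors cannot be told apart from serum, doxycycline and time in culture.

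An elastic fibre is a core of elastin laid on a scaffold of microfibrils. Fibrillins and microfibril-associated glycoproteins build the scaffold, fibulins bring elastin onto it, lysyl oxidases cross-link elastin and collagen, and LTBPs tether latent TGF-beta to it. Fibroblasts are the main makers of this matrix, and small leucine-rich proteoglycans from the same cells coat and space collagen fibrils. Sertoli cells are the epithelial cells that nurse germ cells inside the seminiferous tubule, where they sit on a basement membrane, while peritubular and interstitial cells make the fibrous matrix outside it.

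Promoter sequence was given for 27 of the members, in 35 windows of 300 bases (RefSeq, GRCm38.p6). The 200 bases before a start site are shown for 5 genes that stand for the patterns described further on: Pdgfra, Bgn and Postn fell in both inductions, S100a4 fell but stayed above the gonad, and Fmod rose. They were chosen after the motif search, for holding 1 of the motifs. All 5 genes lie on the plus strand, and the stretches are chr5:75152051-75152250 for Pdgfra, chrX:73483401-73483600 for Bgn, chr3:54360907-54361106 for Postn, chr3:90603570-90603769 for S100a4 and chr1:134037054-134037253 for Fmod. Capitals mark motif matches on either strand, and overlapping matches of a motif run together.
Pdgfra: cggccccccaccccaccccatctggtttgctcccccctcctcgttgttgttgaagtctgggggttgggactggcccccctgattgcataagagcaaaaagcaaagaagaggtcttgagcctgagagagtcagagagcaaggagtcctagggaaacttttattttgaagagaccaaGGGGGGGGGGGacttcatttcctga
Bgn: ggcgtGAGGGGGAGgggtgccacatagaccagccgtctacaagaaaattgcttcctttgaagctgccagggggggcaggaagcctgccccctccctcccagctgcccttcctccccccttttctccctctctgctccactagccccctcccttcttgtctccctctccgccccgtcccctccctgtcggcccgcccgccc
Postn: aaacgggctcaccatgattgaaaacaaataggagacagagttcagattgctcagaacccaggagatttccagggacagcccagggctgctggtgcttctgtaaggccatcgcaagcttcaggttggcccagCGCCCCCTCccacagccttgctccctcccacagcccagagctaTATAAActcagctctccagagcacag
S100a4: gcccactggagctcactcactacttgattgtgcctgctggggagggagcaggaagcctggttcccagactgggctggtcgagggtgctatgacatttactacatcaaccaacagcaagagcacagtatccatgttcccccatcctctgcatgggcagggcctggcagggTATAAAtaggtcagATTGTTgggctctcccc
Fmod: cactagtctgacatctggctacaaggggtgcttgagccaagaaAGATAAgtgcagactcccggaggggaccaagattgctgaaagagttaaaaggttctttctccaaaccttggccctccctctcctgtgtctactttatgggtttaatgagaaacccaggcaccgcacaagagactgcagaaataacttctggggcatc
The capitals are GNGGGGGNG, a form of the WT1 and EGR motif, in Pdgfra, Bgn and Postn, a TATA box (TATAAA) in Postn and S100a4, a SOX motif (AACAAT) in S100a4 and a GATA motif (AGATAA) in Fmod. TATAAA was in 8 of the 35 windows of members (22.9%) and in 13.6% of all 32851 windows of the same length. AACAAT was in 17.1% against 10.7% of all windows, and GNGGGGGNG in 7 of the 35 against 18.8% of all windows. The NR5A half-site CAAGGTCA, tried because Nr5a1 is 1 of the factors, was in 1 window, that of Efemp2 (2.86% against 1.56%), and AGATAA in 1, that of Fmod (2.86% against 11.2%). The AP-1 motif TGANTCA was in 1 window, that of Efemp1 (2.86% against 7.81%), and the TEAD motif GGAATG in 8.57% against 14.7%. These are counts of letters in short windows and say nothing of whether a factor binds there.

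The values are the authors' deposited log2 signals, on which 1 unit is a doubling. Every array had the same distribution, with a median of 7.49 and a maximum of 18.87, and features under the median are called dim here. The background under dim signal is unknown, so the size of a fall that ends there is uncertain, and values near the maximum may be compressed. All 42 members were among the 16658 genes tested, and a gene is called at an adjusted p under 0.05. Replicate arrays lay close together, with a median distance of 0.06 to 0.13 over the members, and the widest in a group were Dpt in the gonad (0.79), Lum in TTF-ieSC (0.77), Sparc in MEF (0.75) and Fbln2 in immature Sertoli cells (0.60). In TTF-ieSC 6 members, Thy1, Dpt, Lum, Ogn, Postn and Cilp, were apart by 0.5 or more, all of them dim there. By a list of 18 Sertoli markers, 18 were above the array median in the gonad, 17 in each Sertoli culture, 14 in each kind of induced cell, 14 in MEF and 10 in TTF, so the count did not set MEF-ieSC apart from MEF. The mean level of these markers was 11.46 in MEF-ieSC and 11.70 to 11.72 in TTF-ieSC. In MEF it was 9.65 to 9.68 and in TTF 8.62 to 8.65. Amh, Gata4, Fshr and Aard were dim in both kinds of induced cell.

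Most of the list was bright in both fibroblasts, dim or low in the induced cells and intermediate in the native samples. The median level of the 42 members was 15.14 in MEF and 14.88 in TTF, 8.51 in MEF-ieSC and 8.35 in TTF-ieSC, 11.58 in the gonad, 12.49 in immature and 13.58 in mature Sertoli cells. The highest group was TTF for 20 members, MEF for 14, the gonad for 4 (Pdgfra, Lum, Mfap2 and Mfap4), mature Sertoli cells for 2 (Dpep1 and Crispld2), MEF-ieSC for Fmod and TTF-ieSC for Dcn. On group means 15 members were dim in MEF-ieSC and 17 in TTF-ieSC, against 1 in MEF (Cilp), 0 in TTF, 1 in the gonad and 1 in mature Sertoli cells (Dpt in both), and 0 in immature Sertoli cells. In bulk RNA, fewer cells of a kind and less RNA per cell cannot be told apart.

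**Figure D1:**
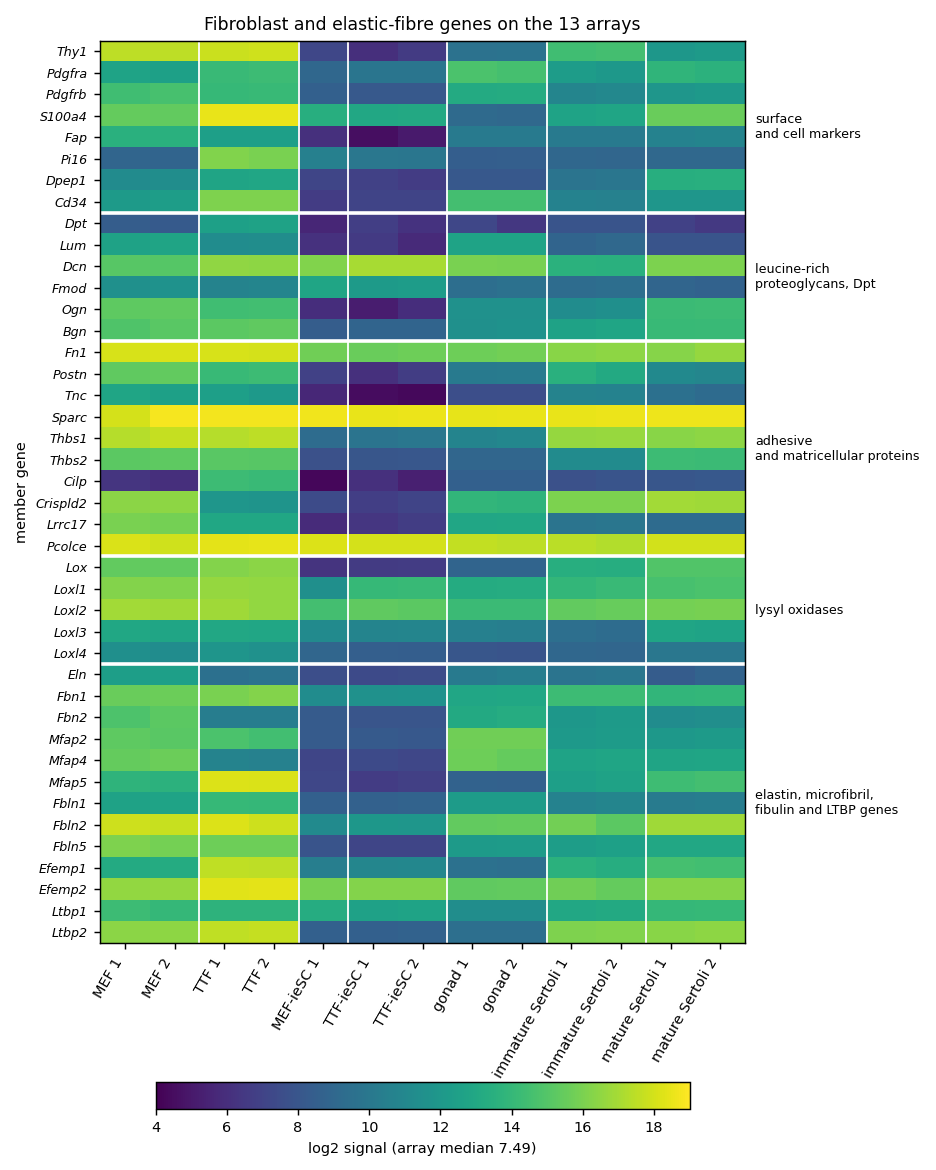
Log2 signal of the 42 members (rows, grouped by role) on each of the 13 arrays (columns), with the colour scale below. The 3 columns of induced cells are dark for most members, and the rows of Dcn, Sparc, Pcolce, Efemp2 and Fn1 stay light there.

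The comparison of TTF-ieSC with TTF sets the level of each gene in the induced cells against that in tail tip fibroblasts. Of the 42 members, 39 were lower and 2 higher, Dcn and Fmod, while Sparc did not pass. Over all genes tested, 35.2% were lower and 39.5% higher. The members' median log2 difference was -5.98, against 0.06 over all genes tested. A total of 36 members were called lower by 2 or more, a 4-fold difference in signal, as were 8.72% of all genes tested. By role, 8 of 8 surface and cell markers, 4 of 6 proteoglycan genes, 9 of 10 adhesive and matricellular genes, 5 of 5 lysyl oxidases and 13 of 13 elastin, microfibril, fibulin and LTBP genes were lower.

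In MEF-ieSC against MEF, with a single array of induced cells, 37 members were lower and 3 higher, Pi16, Fmod and Dcn, while Sparc and Pcolce did not pass. Over all genes tested 33.6% were lower and 34.3% higher. The median difference of the members was -5.21, against 0.01 over all genes tested, and 33 were called lower by 2 or more, as were 7.80% of all genes tested. The calls were shared for most: 37 members were lower in both inductions, as were 23.9% of all genes tested, 2 were higher in both, as were 25.9%, and Pi16 went opposite ways, as did 6.94%. On 26 members, all 3 induced arrays lay below all 10 other arrays, which held for 13.1% of all genes tested.

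**Figure D2:**
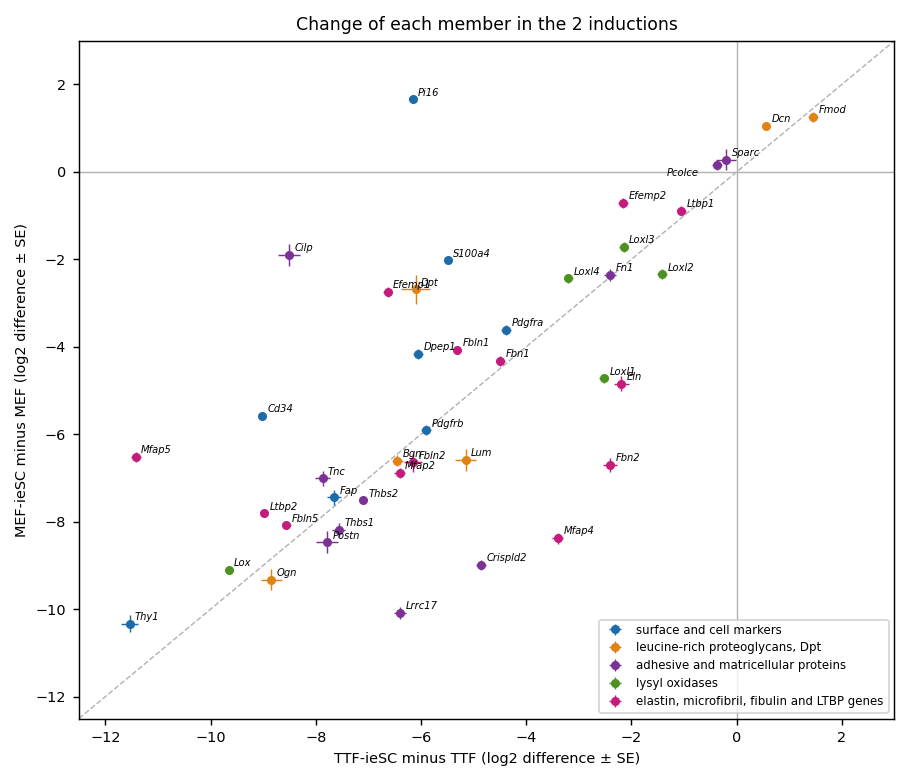
Log2 difference (± standard error of the fit) of each member in TTF-ieSC minus TTF (x axis) and in MEF-ieSC minus MEF (y axis), coloured by role, with the line of equal change dashed. Most members lie in the lower left, with Fmod and Dcn at the upper right, Pi16 far out at the upper left, and Sparc and Pcolce close to 0 on both axes.

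Among the surface and cell markers, Thy1, a GPI-anchored protein used to sort fibroblasts, had the largest fall of any member in each induction. It read 17.50 and 17.51 on the MEF arrays, 17.79 and 17.89 on the TTF arrays, 7.18 on the MEF-ieSC array, and 6.01 and 6.60 on the TTF-ieSC arrays. The 3 induced arrays were dim and the 4 fibroblast arrays were near the top of the scale, with no overlap. The difference was -11.54 ± 0.16 from TTF (adjusted p = 7.51e-11, ± standard error here and below) and -10.33 ± 0.20 from MEF (adjusted p = 9.37e-10).

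Cd34, a sialomucin of vascular and stromal cells, read 12.15 and 12.36 in MEF, 16.08 and 16.12 in TTF, 6.68 in MEF-ieSC, and 7.07 on both TTF-ieSC arrays. All 3 induced arrays were dim, from starting levels that differed between the fibroblasts. The brighter feature of Cd34 changed by -9.03 ± 0.07 from TTF and -5.58 ± 0.09 from MEF (adjusted p = 8.40e-12 and 3.38e-10), and its dimmer feature by -3.45 and -1.03.

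Pdgfra and Pdgfrb, receptors for platelet-derived growth factors on mesenchymal cells, fell without going dim. Pdgfra read 12.69 and 12.55 in MEF, 14.17 and 14.26 in TTF, 9.0 in MEF-ieSC, and 9.82 and 9.84 in TTF-ieSC. It is read by 10 features of 1 accession, whose differences ranged from -4.48 to -4.17 from TTF and from -3.79 to -3.53 from MEF. The groups did not overlap, and the features of 1 array had a median standard deviation of 0.22. Pdgfrb changed by -5.90 ± 0.10 from TTF and by -5.90 ± 0.12 from MEF (adjusted p = 1.64e-10 and 1.14e-09), to 8.18 and 8.61.

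Fap, a membrane serine protease of activated fibroblasts, fell to the lowest levels among these markers. Its means were 13.53 in MEF and 12.47 in TTF, 6.09 on the MEF-ieSC array and 4.82 ± 0.35 (SD, n = 2) in TTF-ieSC. Dpep1, a membrane dipeptidase, read 11.22 and 11.35 in MEF, 12.77 and 12.89 in TTF, 7.13 in MEF-ieSC, and 6.90 and 6.65 in TTF-ieSC. Both genes were dim on all 3 induced arrays and above the median on all others.

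S100a4, a calcium-binding protein long used as a fibroblast marker, stayed well above the array median in the induced cells. Its arrays read 15.45 and 15.40 in MEF, 18.51 and 18.48 in TTF, 13.40 in MEF-ieSC, and 12.97 and 13.03 in TTF-ieSC. The difference was -5.49 from TTF and -2.02 from MEF, and the native gonad was lower than either induced cell, at 9.21 and 9.05.

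Pi16, a peptidase inhibitor that marks adventitial fibroblasts, was the only member called in opposite directions. It read 8.90 and 8.81 in MEF, 16.17 and 15.98 in TTF, 10.51 in MEF-ieSC, and 9.94 and 9.89 in TTF-ieSC. The induced arrays lay above MEF and far below TTF. It changed by -6.16 ± 0.07 from TTF (adjusted p = 2.75e-11) and rose by 1.66 ± 0.09 from MEF (adjusted p = 3.37e-07). All 6 native arrays, from 8.51 to 9.06, lay below the induced ones.

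The small leucine-rich proteoglycans split. Dcn (decorin), which binds collagen fibrils and TGF-beta, read 15.12 and 15.03 in MEF, 16.53 and 16.46 in TTF, 16.13 in MEF-ieSC, and 17.07 and 17.05 in TTF-ieSC. The induced arrays lay above the fibroblasts they came from, by 0.57 ± 0.06 (adjusted p = 1.91e-05) for TTF and 1.06 ± 0.07 (adjusted p = 1.65e-06) for MEF. Fmod (fibromodulin), another collagen-binding member of the family, read 11.53 and 11.63 in MEF, 10.72 and 10.81 in TTF, 12.84 in MEF-ieSC, and 12.15 and 12.29 in TTF-ieSC. Here the 3 induced arrays were above all 10 others, with differences of 1.45 ± 0.09 from TTF and 1.26 ± 0.12 from MEF (adjusted p = 1.07e-06 and 1.59e-05).

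Ogn, Bgn and Lum of the same family fell in both. Ogn (osteoglycin) read 15.26 and 15.36 in MEF, 14.37 and 14.46 in TTF, 5.99 in MEF-ieSC, and 5.20 and 5.95 in TTF-ieSC. Its difference was -8.84 from TTF and -9.33 from MEF, to dim signal on each induced array. Bgn (biglycan) changed by -6.45 and -6.60, to 8.82 in TTF-ieSC and 8.43 in MEF-ieSC, above the array median. Lum (lumican) read 12.64 and 12.77 in MEF, 11.29 and 11.37 in TTF, 6.12 in MEF-ieSC, and 6.56 and 5.79 in TTF-ieSC, and was dim on all of the induced arrays. Dpt (dermatopontin), which binds decorin, read 8.40 and 8.25 in MEF, 12.53 and 12.63 in TTF, 5.64 in MEF-ieSC, and 6.78 and 6.18 in TTF-ieSC. It was far above the array median in TTF alone, dim on all 3 induced arrays, and its 10 features changed by -8.18 to -6.10 from TTF.

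Among the adhesive and matricellular proteins, Sparc and Pcolce stayed at the top of the scale. Sparc, a collagen-binding glycoprotein, read 18.03 and 18.78 in MEF, 18.76 and 18.74 in TTF, 18.69 in MEF-ieSC, and 18.53 and 18.57 in TTF-ieSC. The TTF-ieSC arrays lay just under the TTF arrays and the MEF-ieSC array between the MEF arrays, and the differences of -0.20 ± 0.19 from TTF (adjusted p = 0.366) and 0.28 ± 0.23 from MEF (adjusted p = 0.320) did not pass. The value is within 1 unit of the maximum of the arrays in every group, and the other feature of Sparc, with a mean of 14.09, changed by -2.39 from TTF and -2.32 from MEF. The mean of both features gave -1.30 (adjusted p = 1.80e-05) and -1.02 (adjusted p = 0.000402). The bright feature also passed from TTF without either MEF array (adjusted p = 0.00644) and in a fit on TTF and TTF-ieSC alone (adjusted p = 0.0236), and from MEF without MEF replicate 2 (0.65, adjusted p = 0.000102).

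Pcolce, which speeds the trimming of procollagen, read 18.15 and 17.90 in MEF, 18.36 and 18.46 in TTF, 18.18 in MEF-ieSC, and 18.04 and 18.03 in TTF-ieSC. The TTF-ieSC arrays were below the TTF arrays (-0.37 ± 0.09, adjusted p = 0.00538), while the difference from MEF, 0.16 ± 0.11, did not pass (adjusted p = 0.249). Without MEF replicate 1 that difference was 0.28 and passed (adjusted p = 0.0368). Fn1 (fibronectin), the main adhesive glycoprotein of the fibroblast matrix, changed by -2.41 ± 0.11 and -2.36 ± 0.13, from 18.06 in TTF and 18.13 in MEF to 15.66 and 15.78.

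The other matricellular genes fell much further. Thbs1, a thrombospondin that can activate latent TGF-beta, read 17.31 and 17.65 in MEF, 17.33 and 17.53 in TTF, 9.29 in MEF-ieSC, and 9.80 and 9.93 in TTF-ieSC. Thbs2, its close relative, read 15.20 and 15.25 in MEF, 15.18 and 15.13 in TTF, 7.72 in MEF-ieSC, and 8.01 and 8.09 in TTF-ieSC. For both the induced arrays lay some 7 to 8 units under the fibroblasts, at -7.56 and -8.19 for Thbs1 and -7.11 and -7.51 for Thbs2. Postn (periostin), a matrix protein of connective tissue under load, read 15.34 and 15.41 in MEF, 14.11 and 14.27 in TTF, 6.91 in MEF-ieSC, and 6.09 and 6.73 in TTF-ieSC. Tnc (tenascin C), which is made in developing and healing tissue, had differences of -7.87 ± 0.14 and -7.00 ± 0.17. Both Postn and Tnc ended dim in the induced cells.

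Lrrc17, a secreted leucine-rich repeat protein, and Crispld2, a secreted protein of the CAP family, had larger falls from MEF than from TTF. Lrrc17 read 15.96 and 15.87 in MEF, 12.95 and 12.95 in TTF, 5.84 in MEF-ieSC, and 6.36 and 6.75 in TTF-ieSC. Its difference was -10.08 ± 0.13 from MEF (adjusted p = 1.65e-10) and -6.40 ± 0.11 from TTF (adjusted p = 1.92e-10). Crispld2 read 16.37 and 16.42 in MEF, 11.87 and 11.74 in TTF, 7.41 in MEF-ieSC, and 6.80 and 7.10 in TTF-ieSC. Both genes were dim on all 3 induced arrays, whatever level the fibroblast started from.

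Of the lysyl oxidases, Lox fell to dim signal and its relatives fell without going dim. Lox, the founding enzyme that cross-links collagen and elastin, read 15.37 and 15.37 in MEF, 16.24 and 16.38 in TTF, 6.27 in MEF-ieSC, and 6.62 and 6.69 in TTF-ieSC. Its difference of -9.66 ± 0.06 from TTF (adjusted p = 6.79e-12) and -9.10 ± 0.07 from MEF (adjusted p = 3.66e-11) ended in dim signal. Loxl2, which acts on collagen of basement membranes, changed by -1.41 ± 0.10 and -2.34 ± 0.12 and stayed at 15.28 in TTF-ieSC and 14.53 in MEF-ieSC. Loxl3, whose enzyme is needed in skeletal and craniofacial development, read 12.95 and 12.80 in MEF, 13 and 12.87 in TTF, 11.16 in MEF-ieSC, and 10.78 and 10.80 in TTF-ieSC. Its difference was -2.15 from TTF and -1.72 from MEF, with no overlap between induced and source arrays. Loxl4, the remaining family member, changed by -3.20 and -2.43, to 8.50 and 8.94.

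Loxl1, the family member tied to upkeep of elastic fibres, was the member that differed most between TTF-ieSC and MEF-ieSC. With 1 MEF-ieSC array, origin cannot be told apart from a trait of that sample. Loxl1 read 16.20 and 16.13 in MEF, 16.62 and 16.59 in TTF, 11.45 in MEF-ieSC, and 14.07 and 14.10 in TTF-ieSC. The difference was -4.72 from MEF and -2.52 from TTF, which left the MEF-derived array below both TTF-derived ones, and the other feature of Loxl1 gave -4.49 and -2.73.

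All 13 genes of elastin, the microfibrils, the fibulins and the LTBPs fell in each induction. Eln, which encodes elastin itself, read 12.41 and 12.49 in MEF, 9.52 and 9.73 in TTF, 7.61 in MEF-ieSC, and 7.38 and 7.50 in TTF-ieSC. It came down to about the array median from both starting levels, with differences of -4.84 from MEF and -2.19 from TTF. Fbn1, the main fibrillin of adult microfibrils, changed by -4.49 from TTF and -4.32 from MEF and stayed at 11.62 and 11.27. Fbn2, the fibrillin of developing tissue, read 14.80 and 15.20 in MEF, 10.33 and 10.38 in TTF, 8.31 in MEF-ieSC, and 7.94 and 7.96 in TTF-ieSC.

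The microfibril-associated genes differed in where they started and met at the bottom. Mfap5, a glycoprotein of the microfibril, read 13.76 and 13.66 in MEF, 18.21 and 18.17 in TTF, 7.19 in MEF-ieSC, and 6.66 and 6.87 in TTF-ieSC. Its difference from TTF was -11.42 ± 0.10 (adjusted p = 1.01e-11) and from MEF -6.52 ± 0.12 (adjusted p = 6.38e-10). Mfap4, which binds elastin and fibrillin, read 15.45 and 15.62 in MEF, 10.74 and 10.60 in TTF, 7.16 in MEF-ieSC, and 7.35 and 7.19 in TTF-ieSC. Mfap2 read 15.25 and 15.16 in MEF, 14.73 and 14.49 in TTF, 8.32 in MEF-ieSC, and 8.26 and 8.14 in TTF-ieSC. Mfap4 and Mfap5 were dim on every induced array, and Mfap2 was less than 1 unit above the median.

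Of the fibulins, Fbln5, which carries elastin to microfibrils, changed by -8.56 ± 0.08 from TTF and -8.08 ± 0.10 from MEF at its brighter feature. Its dimmer feature, whose mean over the arrays was 6.88, changed by -2.04 and -4.30, so the size of the fall rests on 1 feature. Fbln2 changed by -6.15 and -6.64 and Fbln1 by -5.31 and -4.07, and both kept levels above the median. Efemp1 read 13.15 and 13.22 in MEF, 17.55 and 17.52 in TTF, 10.44 in MEF-ieSC, and 10.88 and 10.92 in TTF-ieSC. Efemp2, which is needed for elastic fibres to form, was among the least changed, with -2.16 ± 0.09 from TTF and -0.71 ± 0.11 from MEF (adjusted p = 0.000486), and kept a level of 16.21 and 15.90.

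The 2 LTBPs parted. Ltbp1, a main carrier of latent TGF-beta, read 14.28 and 14.02 in MEF, 13.69 and 13.72 in TTF, 13.26 in MEF-ieSC, and 12.61 and 12.70 in TTF-ieSC. Its arrays did not overlap between an induced cell and its source, and its differences of -1.05 from TTF and -0.89 from MEF (adjusted p = 5.37e-06 and 9.34e-05) were small. Ltbp2, which sits on microfibrils without carrying TGF-beta, read 16.39 and 16.45 in MEF, 17.59 and 17.67 in TTF, 8.61 in MEF-ieSC, and 8.60 and 8.71 in TTF-ieSC. It changed by -8.98 and -7.81 (adjusted p = 6.88e-12 and 9.98e-11).

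TTF and MEF, the starting fibroblasts, differed in many members and in both directions. In TTF 18 members were higher and 15 lower, where 31.1% and 35.5% of all genes tested were. Of the 42, 7 were called higher by 2 or more and 5 lower by 2 or more, against 2.83% and 2.80% of all genes tested. Cilp, a matrix protein first found in cartilage, had the largest difference. It read 6.29 and 6.02 in MEF, 14.29 and 14.15 in TTF, 4.25 in MEF-ieSC, and 6.07 and 5.34 in TTF-ieSC, and was dim on all arrays of MEF and of both induced cells. The difference between the fibroblasts was 8.07 ± 0.21 for Cilp, 7.22 ± 0.07 for Pi16 and 4.48 ± 0.10 for Mfap5 (adjusted p = 1.10e-08, 1.94e-10 and 4.04e-09). On the other side were Mfap4 at -4.86 ± 0.10, Fbn2 at -4.64 ± 0.13 and Crispld2 at -4.59 ± 0.10 (adjusted p = 3.64e-09, 1.78e-08 and 3.60e-09). Thy1, Bgn, Fn1, Sparc, Thbs1, Thbs2, Fbln2, Loxl2 and Loxl3 did not pass. With a minimum difference of 1 the count of 33 called members was 21.

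Members that set the fibroblasts apart were closer together in the cells made from them, as were most genes tested that were as far apart. The root mean square log2 difference over the 42 members was 2.69 between TTF and MEF and 0.72 between TTF-ieSC and MEF-ieSC, against 1.0 and 0.47 over all genes tested. Of the 42 members, 28 were closer in the induced cells than in the fibroblasts, as were 75.4% of all genes tested, so the share was no higher than the background. Of the 12 members apart by 2 or more between the fibroblasts, 0 were apart by 2 or more between the induced cells, and 1, Cilp, by 1 or more (1.46). These 12 were picked for their distance in the fibroblasts, and of the 939 genes tested that were as far apart there, 1.28% were apart by 2 or more in the induced cells and 12.6% by 1 or more. Mfap4 differed by -4.86 between the fibroblasts and by 0.11 between the induced cells, where it was dim. Of the 12, Dpt, Mfap5, Cilp, Crispld2, Lrrc17 and Cd34 were also dim in both kinds of induced cell. The unknown background limits what their closeness there can show. Loxl1 alone was apart by 2 or more in the induced cells, at 2.64 ± 0.10 (adjusted p = 7.10e-06), where 0.360% of all genes tested were called higher by 2 or more.

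**Figure D3:**
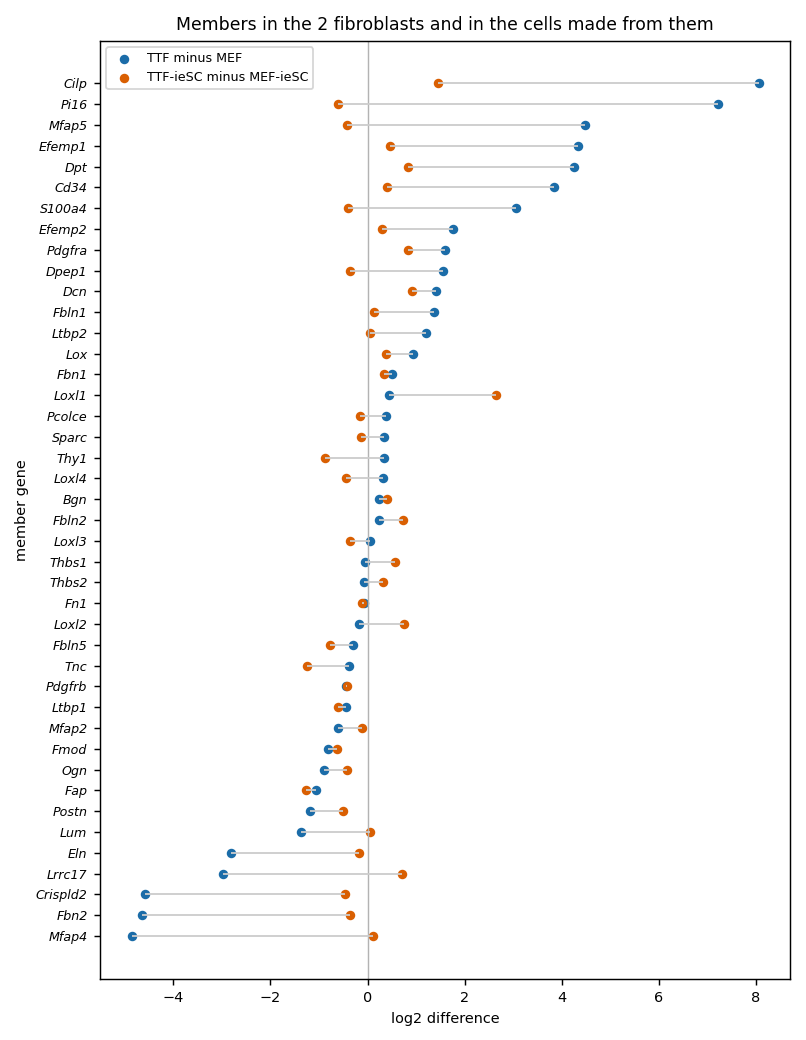
Log2 difference of each member between the fibroblasts (TTF minus MEF, blue) and between the cells made from them (TTF-ieSC minus MEF-ieSC, orange), joined by a line per gene. Pi16 near the top and Mfap4 and Fbn2 at the bottom are far from 0 in the fibroblasts and near it in the induced cells, Cilp goes from 8.07 to 1.46, and Loxl1 is farther from 0 in the induced cells.

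In TTF-ieSC against MEF-ieSC 11 members were higher and 12 lower, where 7.53% and 6.76% of all genes tested were, and 19 did not pass. Beside Loxl1, the larger differences were 1.46 for Cilp, -1.27 for Fap and -1.25 for Tnc, all of them dim in both, then 0.93 for Dcn, which was not, -0.88 for Thy1, which was dim in both, and 0.83 for Pdgfra, which was not. The other feature of Tnc had the opposite sign, at 0.68. Dpt, at 0.84, did not pass, and its other features gave -0.88 to -0.08. The test leans on the spread of the other groups, since MEF-ieSC has 1 array. A fit on these groups alone called 0 members and 6 of all genes tested.

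The test of the difference between the inductions asks whether a member changed more from 1 fibroblast than from the other. Of the members, 20 had a lower value in TTF-ieSC minus TTF than in MEF-ieSC minus MEF and 11 a higher one, against 25.2% and 28.9% of all genes tested. The largest were Pi16 at -7.82 ± 0.11, Cilp at -6.61 ± 0.33 and Mfap5 at -4.91 ± 0.15, and on the other side Mfap4 at 4.97 ± 0.16, Fbn2 at 4.29 ± 0.21 and Crispld2 at 4.13 ± 0.15. These are the 6 members farthest apart in TTF against MEF, and the value is by its construction the difference of the induced cells minus that of the fibroblasts. The 2 inductions share no array. Pearson's r between their changes was 0.69 across the 42 members and Spearman's rho 0.67, against 0.80 and 0.71 over all genes tested, which is a description since genes are not replicates.

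Against native cells, most members were lower in the induced cells than in any native sample. On 27 members, each read at its brightest feature, all 3 induced arrays lay below all 6 native arrays, which held for 21.9% of all genes tested. The same 27 were called lower in both kinds of induced cell against both immature Sertoli cells and gonad, as were 23.6% of all genes tested. They are Thy1, Pdgfra, Pdgfrb, Fap, Dpep1, Cd34, Lum, Ogn, Bgn, Postn, Tnc, Thbs1, Thbs2, Cilp, Crispld2, Lrrc17, Lox, Eln, Fbn1, Fbn2, Mfap2, Mfap4, Mfap5, Fbln1, Fbln2, Fbln5 and Ltbp2. Over the 42 members TTF-ieSC lay 4.13 from immature Sertoli cells and 3.81 from the gonad (root mean square log2 difference), MEF-ieSC 4.08 and 3.83, while MEF lay 2.41 from immature Sertoli cells.

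Against immature Sertoli cells, 32 members were lower and 7 higher in TTF-ieSC, where 39.0% and 37.8% of all genes tested were. In MEF-ieSC the counts were also 32 and 7, where 36.2% and 34.4% of all genes tested were. The Sertoli cultures held Crispld2 at 16.02 and 16.02 when immature and 16.92 and 16.86 when mature, above the gonad at 13.87 and 13.76 and far above the induced cells. Its difference from immature cells was -9.07 ± 0.10 in TTF-ieSC and -8.61 ± 0.12 in MEF-ieSC (adjusted p = 5.76e-11 and 3.28e-10), the largest for each. Thy1 read 14.43 and 14.54 in immature Sertoli cells, 11.97 and 12.16 in mature ones and 9.68 and 9.72 in the gonad. The induced cells were below all of these, with differences of -8.19 (TTF-ieSC) and -7.31 (MEF-ieSC) from immature cells.

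Thbs1 and Ltbp2 were high in the Sertoli cultures and low in the uncultured gonad. Ltbp2 read 16.11 and 16.18 in immature Sertoli cells, 16.33 and 16.43 in mature ones, and 9.49 and 9.46 in the gonad. Thbs1 read 16.60 and 16.66, 16.33 and 16.46, and 10.75 and 10.95 in the same order. The induced cells were within 2 units of the gonad for both genes (-0.82 and -0.87 for Ltbp2, -0.98 and -1.56 for Thbs1) and about 7 units under the immature cultures (-7.49 and -7.54 for Ltbp2, -6.77 and -7.34 for Thbs1).

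Against the gonad, 27 members were lower and 12 higher in TTF-ieSC, where 41.5% and 38.2% of all genes tested were. In MEF-ieSC 29 were lower and 11 higher, where 39.1% and 35.9% of all genes tested were. Mfap4 read 15.67 and 15.47 in the gonad, 12.72 and 12.85 in immature and 12.74 and 12.84 in mature Sertoli cells, and the differences from the gonad were -8.30 in TTF-ieSC and -8.41 in MEF-ieSC. Mfap2 read 15.73 and 15.77 in the gonad, 12.07 and 12.23 in immature and 12.01 and 12.17 in mature Sertoli cells. Cd34 read 14.51 and 14.53 in the gonad, 10.67 and 10.60 in immature and 11.87 and 11.91 in mature Sertoli cells. All 3 genes were higher in the gonad than in either culture, and the induced cells were under all native arrays. For Cd34 this is its brighter feature. Its dimmer feature differed from immature cells by only -0.02 in TTF-ieSC and -0.19 in MEF-ieSC.

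A set of 7 members was above both immature Sertoli cells and gonad in both kinds of induced cell: S100a4, Pi16, Dcn, Fmod, Loxl3, Efemp2 and Pcolce. The same held for 22.5% of all genes tested. Dcn read 13.58 and 13.53 in immature Sertoli cells, 16.05 and 16.05 in mature ones and 15.99 and 15.90 in the gonad, and TTF-ieSC were above the immature cells by 3.51 ± 0.06 and MEF-ieSC by 2.58 ± 0.07 (adjusted p = 2.98e-10 and 6.69e-09). Fmod read 9.27 and 9.44 in immature Sertoli cells, 8.89 and 8.74 in mature ones and 9.43 and 9.61 in the gonad, and was higher than in immature cells by 2.86 in TTF-ieSC and 3.48 in MEF-ieSC. S100a4 read 12.73 and 12.80 in immature Sertoli cells and 15.56 and 15.57 in mature ones, and differed from the gonad by 3.87 ± 0.06 in TTF-ieSC and 4.28 ± 0.08 in MEF-ieSC. For S100a4 the mature cultures were above the induced cells, and for Fmod they were below them.

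Loxl3 read 9.50 and 9.29 in immature Sertoli cells, 12.82 and 12.71 in mature ones and 10.54 and 10.41 in the gonad. The induced cells lay between the immature and mature cultures. For the other lysyl oxidases the kinds of induced cell gave different calls. In TTF-ieSC against immature Sertoli cells Loxl1 (0.02 ± 0.08, adjusted p = 0.830) and Loxl2 (-0.16 ± 0.10, adjusted p = 0.169) did not pass, while the other features of Loxl2 gave -1.02 and -0.53. In MEF-ieSC they were lower, Loxl1 at -2.62 ± 0.10 (adjusted p = 6.42e-08) and Loxl2 at -0.90 ± 0.12 (adjusted p = 0.000147). Loxl4 was lower in TTF-ieSC (-0.48 ± 0.09, adjusted p = 0.00112) and did not pass in MEF-ieSC (-0.03 ± 0.11, adjusted p = 0.792). The other feature of Loxl4 gave -0.06 in TTF-ieSC and 0.37 in MEF-ieSC. Lox, at -6.71 ± 0.06 in TTF-ieSC and -7.09 ± 0.07 in MEF-ieSC, was lower in both. Fn1 in the induced cells did not differ from the gonad by the test, at -0.07 ± 0.11 (adjusted p = 0.540) in TTF-ieSC and 0.04 ± 0.13 (adjusted p = 0.780) in MEF-ieSC.

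**Figure D4:**
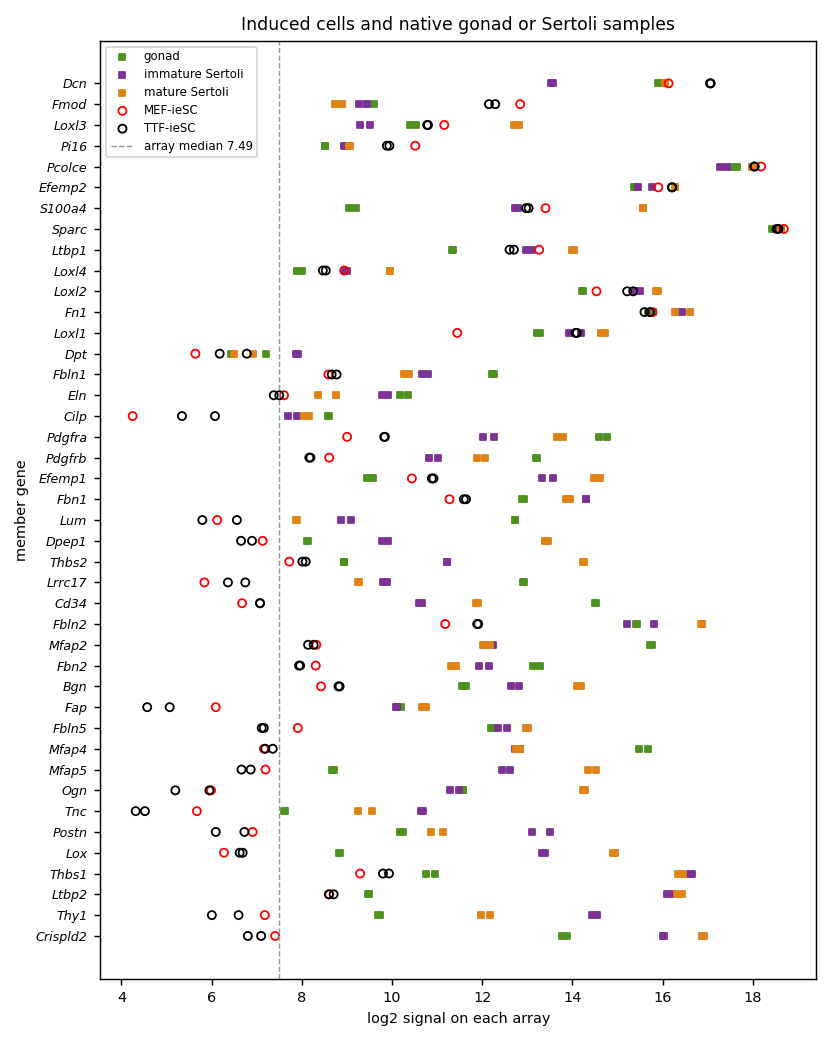
Log2 signal of each member on the 3 induced arrays (open circles) and the 6 native arrays (filled squares), with the array median dashed. Genes are ordered by the mean of the induced arrays minus the mean of immature Sertoli cells. For 27 members every circle is to the left of every square, and for Fmod, Pi16, Dcn and Pcolce every circle is to the right.

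The native samples themselves held less of most members than the fibroblasts. Immature Sertoli cells against MEF had 37 members lower and 2 higher, where 35.6% and 36.2% of all genes tested were, with a median of -2.01. The largest falls were those of Lrrc17 (-6.08 ± 0.11), Thbs2 (-4.01 ± 0.05, to 11.22 on both arrays) and Ogn (-3.92 ± 0.20), followed by Lum (-3.73 ± 0.20). Lrrc17 read 9.79 and 9.88 in immature Sertoli cells, 9.25 and 9.26 in mature ones and 12.89 and 12.92 in the gonad, all below MEF. The 2 higher members were Cilp (1.64 ± 0.21), at 7.70 and 7.90 and near the array median, and Efemp1 (0.27 ± 0.09, adjusted p = 0.0226), at 13.57 and 13.33. The call of Efemp1 was lost with array weights (adjusted p = 0.0528), with only the arrays of MEF and immature cells fitted (adjusted p = 0.0924), without MEF replicate 1 (adjusted p = 0.100) and without immature Sertoli replicate 1 (adjusted p = 0.142). Both genes fell in MEF-ieSC.

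Mature Sertoli cells against TTF had 34 members lower and 5 higher, where 40.4% and 36.6% of all genes tested were. The largest falls were those of Pi16 (-7.02 ± 0.07), Cilp (-6.12 ± 0.21) and Dpt (-5.87 ± 0.27). The largest rises were those of Crispld2 (5.09 ± 0.10), Mfap4 (2.12 ± 0.10) and Fbn2 (1.01 ± 0.13). These genes also differed between TTF and MEF. Thy1, which did not pass in TTF against MEF, had the next largest fall, at -5.77. Dpt was dim in mature Sertoli cells, at 6.93 and 6.51, and Fbn2 read 11.31 and 11.42 there.

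The gonad against MEF had 34 members lower and 5 higher, where 36.8% and 41.1% of all genes tested were. Thy1 (-7.81 ± 0.16), Ltbp2 (-6.94 ± 0.07) and Thbs1 (-6.63 ± 0.13) were the lowest. Cilp (2.44 ± 0.21), Cd34 (2.27 ± 0.07) and Pdgfra (2.06 ± 0.10) were the highest, with Pdgfra at 14.77 and 14.59 in the gonad against 12.27 and 12.02 in immature and 13.80 and 13.66 in mature Sertoli cells.

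Between native samples the members went both ways. In mature against immature Sertoli cells 24 members were higher and 11 lower, where 28.9% and 39.6% of all genes tested were, and all 5 lysyl oxidases were higher in the mature cells, by 0.44 (Loxl2) to 3.37 (Loxl3). Dpep1 (3.58 ± 0.09), Loxl3 and Thbs2 (3.02 ± 0.05) had the largest rises. Dpep1 read 9.78 and 9.91 in immature and 13.39 and 13.46 in mature Sertoli cells, and 8.14 and 8.12 in the gonad. Thy1 (-2.42 ± 0.16), Postn (-2.31 ± 0.21) and Eln (-1.28 ± 0.14) had the largest falls. Postn read 13.51 and 13.10 in immature and 11.13 and 10.87 in mature cells, and Eln 9.78 and 9.91 in immature and 8.37 and 8.77 in mature cells, with no overlap for either.

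In immature Sertoli cells against the gonad 23 members were higher and 14 lower, where 32.6% and 37.9% of all genes tested were. Ltbp2 (6.67 ± 0.07), Thbs1 (5.78 ± 0.13) and Thy1 (4.78 ± 0.16) were the most raised, and Cd34 (-3.88 ± 0.07), Lum (-3.75 ± 0.20) and Mfap2 (-3.60 ± 0.10) the most lowered. Age, culture, serum and cell makeup (gonad or Sertoli culture) differ together between these samples and cannot be told apart.

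The native samples also differed in markers of other cell types. The members' median level was lowest in the gonad and highest in mature Sertoli cells. By mean level, the smooth muscle and macrophage markers had the same order over these samples. The germ cell, endothelial, Leydig, epithelial and erythroid markers did not. By count, the smooth muscle markers were tied in the Sertoli cultures. The mean macrophage level was 9.03 to 9.05 in the gonad, 9.33 to 9.37 in immature and 9.56 to 9.59 in mature Sertoli cells. Of 10 markers of peritubular myoid cells and smooth muscle, 10 were above the array median in each Sertoli culture and in MEF. Their mean level was 14.21 to 14.28 in immature and 14.53 to 14.55 in mature Sertoli cells, 14.42 to 14.47 in MEF, 12.59 to 12.66 in TTF, 11.40 to 11.51 in the gonad, 10.48 in MEF-ieSC and 10.00 to 10.02 in TTF-ieSC. Of 11 macrophage markers, 10 were above the median in immature and 11 in mature Sertoli cells, 9 in the gonad, 8 in MEF, 4 in TTF and 2 in each kind of induced cell. Of 10 germ cell markers, 10 were above it in the gonad, 8 in immature and 7 in mature Sertoli cells, 3 in MEF and 2 in TTF and in each induced cell. Of 10 endothelial markers, 10 were above it in the gonad and in TTF, 9 in immature and 8 in mature Sertoli cells, 6 in MEF and TTF-ieSC and 5 in MEF-ieSC, and of 7 Leydig markers, 7 in the gonad and immature cells, 6 in mature cells, 5 in MEF, 4 in TTF and MEF-ieSC and 3 in TTF-ieSC. Of 9 epithelial markers, 9 were above it in each Sertoli culture, 8 in the gonad and in each induced cell, 6 in TTF and 5 in MEF. Of 5 erythroid markers, 4 were above it in the gonad, 3 in each induced cell, 2 in mature and 1 in immature Sertoli cells, and 0 in MEF and TTF. The part of these cells in the members' native levels was not tested.

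Other genes of the same matrix did not follow the members as a block. Of 21 further partners of elastic fibres and microfibrils, 8 fell and 9 rose in TTF-ieSC against TTF, with a median of 0.12, and 7 fell and 10 rose in MEF-ieSC against MEF. The protease gene Adamts6 fell (-3.41 ± 0.22), as did Adamtsl3 (-2.44 ± 0.14), while Adamts17 rose by 2.04 ± 0.19. Ltbp4, the LTBP that serves elastic fibre assembly, rose by 4.82 ± 0.08 (adjusted p = 1.44e-10) to 17.08, and by 2.33 ± 0.10 in MEF-ieSC. Of 28 other matrix glycoproteins that were tested, 23 fell and 3 rose from TTF and 18 fell and 7 rose from MEF. Smoc2 (-10.43 ± 0.95) and the thrombospondin Thbs4 (-9.85 ± 0.09) fell from TTF, and the basement membrane genes Smoc1 (4.87 ± 0.06) and Nid2 (2.96 ± 0.07) rose.

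Genes of TGF-beta signalling were split, with 10 of 19 lower and 8 higher from TTF and 11 lower and 7 higher from MEF. The ligand Tgfb2 rose from TTF by 4.28 ± 0.10, and the co-receptor Tgfbr3 (-5.33 ± 0.10) and the inhibitor Smad7 (-2.11 ± 0.12) fell. Of 26 mesenchymal transcription factors, 20 fell and 3 rose from TTF and 22 fell and 3 rose from MEF. Meox2 (-8.62 ± 0.23) and Twist2 (-8.55 ± 0.14) fell from TTF to dim signal, and Scx, a factor of tendon, rose by 4.73 ± 0.06 to 15.39. The shares of all genes tested for these counts are those given for the same comparisons at the start, 35.2% lower and 39.5% higher from TTF and 33.6% and 34.3% from MEF.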

How the data were processed

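RNA from 13 mouse samples was measured on 1-colour Agilent arrays (total RNA, Cy3). The deposited values are log2 signals that the authors had already brought to one distribution on all arrays; the base of the logarithm was taken from the range of the values, and the submitters' processing notes name limma without a version. The sources used here give no background correction, floor or detection flag. Precision is limited by how few arrays each group has.

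Features were named from the platform's annotation, updated through RefSeq GRCm38.p6: 31465 of 62976 had 1 gene and 31511 none. A gene's value is that of its brightest feature. The 16658 genes tested had a value over the array median on 2 or more arrays. limma 3.58.1 in R 4.3.3 (lmFit, eBayes) fitted all 7 groups together, and p-values were adjusted over all genes tested by the Benjamini-Hochberg method. For MEF-ieSC, with 1 array, the spread of the other groups was used. The fit was tested on simulated data. Standard errors are those of the fit.

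Every member is named. Values on each array are given for the largest and smallest changes in each comparison, and of the other lists the 2 largest rises and falls from TTF may be named. The members, lists and rules were chosen with earlier results of these data known. Alternatives covered the normalization, filter, features, variance model, array weights, a title-number block, the groups fitted, a minimum difference and leaving out each array.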

Additional observations from a re-analysis of the deposited data

Results flagged for a closer look

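For 31 of the 42 members the change in TTF-ieSC against TTF differed from the change in MEF-ieSC against MEF, by the test of the difference itself in limma (adjusted p under 0.05, against 25.2% lower and 28.9% higher of all genes tested). The value is the first change minus the second. Groups of 2 arrays are too small for a check of single arrays that stand apart.

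The surface and cell markers differed by -7.82 for Pi16, -3.47 for S100a4, -3.45 for Cd34, -1.90 for Dpep1, -1.21 for Thy1 and -0.77 for Pdgfra. For all 6 the change from TTF was the more negative, which is not a statement of the level in the induced cells. Among the proteoglycans and dermatopontin the values were -3.42 for Dpt, -0.49 for Dcn and 1.43 for Lum. Among the adhesive and matricellular genes the lower values were -6.61 for Cilp, -0.87 for Tnc and -0.53 for Pcolce. The higher ones were 0.40 for Thbs2, 0.63 for Thbs1, 3.68 for Lrrc17 and 4.13 for Crispld2. The other feature of Tnc changed by -5.22 from TTF and by -5.96 from MEF, which gives the opposite sign.

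The lysyl oxidases differed by -0.76 for Loxl4, -0.56 for Lox, -0.43 for Loxl3, 0.93 for Loxl2 and 2.20 for Loxl1, so all 5 were called and they went both ways. Among the elastin, microfibril, fibulin and LTBP genes the lower values were -4.91 for Mfap5, -3.89 for Efemp1, -1.45 for Efemp2, -1.24 for Fbln1, -1.17 for Ltbp2 and -0.48 for Fbln5, and the higher ones 0.48 for Mfap2, 2.65 for Eln, 4.29 for Fbn2 and 4.97 for Mfap4. For Loxl1 and Loxl2 the fibroblasts were 0.44 and -0.18 apart and the induced cells 2.64 and 0.75 apart. The other features of Loxl2 were -0.41 and -0.34 apart in the fibroblasts and 0.08 and 0.24 in the induced cells. For Pi16, Cilp, Mfap4 and Mfap5 the fibroblasts were the farther apart.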

How the results depend on the processing

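Of 12726 member values under the alternatives, 12466 kept their direction and their side of the threshold, 167 lost the call, 80 gained one and 13 turned sign. With a minimum difference of 1, members called went from 33 to 21 in TTF against MEF, 23 to 4 in TTF-ieSC against MEF-ieSC, 35 to 20 in mature against immature Sertoli cells and 31 to 19 in the difference of the inductions. In a fit on the groups alone, TTF-ieSC against MEF-ieSC went from 23 members to 0 and from 2381 genes to 6. Over all genes tested, the minimum difference took the calls from 12444 to 5615 for TTF-ieSC against TTF, 11318 to 4860 for MEF-ieSC against MEF, 11090 to 3208 for TTF against MEF, 2381 to 456 for TTF-ieSC against MEF-ieSC and 9010 to 3344 for the difference of the inductions. Against MEF it took them from 11964 to 4037 for immature cells and 12971 to 5290 for gonad, against TTF from 12836 to 5224 for mature cells, and from 11407 to 3551 for mature against immature cells and 11750 to 4041 for immature cells against gonad. For TTF-ieSC and MEF-ieSC it took them from 12788 to 5230 and 11763 to 5177 against immature cells and from 13282 to 5949 and 12492 to 5922 against gonad. Without each array in turn, members called ranged from 41 to 42 for TTF-ieSC against TTF, 40 to 41 for MEF-ieSC against MEF, 31 to 34 for TTF against MEF, 17 to 25 for TTF-ieSC against MEF-ieSC and 30 to 32 for the difference of the inductions. The cause of these changes was not tested beyond what each alternative does by construction.

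The mean of all features turned the sign of Sparc in MEF-ieSC against MEF (-1.02), gonad against MEF (-0.61), TTF-ieSC (-0.86) and MEF-ieSC (-0.87) against immature cells, TTF-ieSC (-0.40) and MEF-ieSC (-0.41) against gonad, and mature against immature cells (-0.49). It also turned Loxl4 in TTF against MEF (-0.038), Lox (-0.060) and Fbln5 (0.71) in TTF-ieSC against MEF-ieSC, and Fbln5 in the difference of the inductions (0.89). Without 1 MEF replicate, Sparc ranged from -0.25 to 0.50 in immature cells and from -0.32 to 0.43 in gonad against MEF, the lower value being without replicate 1. The labels give no replicate numbers, so no sample is known to be paired. With the titles numbered up to 8 against the later ones as a block, which the labels call neither a batch nor a pairing, 25 members were called in TTF-ieSC against MEF-ieSC, 41 in TTF-ieSC against TTF and 40 in MEF-ieSC against MEF, and no count moved by over 1.5 times. The features around each member feature shifted by at most 0.32 in size, which was around Loxl2 on the MEF-ieSC array. This check was chosen after seeing the data, with the layout read from feature numbers. Unknown background limits dim values, and signal near the maximum limits Sparc and Pcolce.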
